A study of Mus musculus with 6 samples.

Results

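The secretory epithelial transcription factors are 10 genes that set or maintain the identity of acinar and duct cells, the cells that make saliva and the cells that modify and carry it. They were taken by gene symbol, with earlier results of these data known. Bhlha15, Xbp1, Creb3l1 and Spdef stand for acinar and secretory cells, and Sox9, Sox10, Elf5, Ehf, Etv1 and Nfib for ducts and their progenitors. All 10 had a probe set in the platform annotation, 1 each, among 19505 named genes. Total RNA of whole submandibular glands was hybridised to 1 short-oligonucleotide array per mouse, in 3 Myd88−/− and 3 Myd88+/+ mice. All 6 were females of 10 weeks, and the strain labels read NOD.B6-Myd88−/− and NOD.B6-Myd88+/+. Both groups therefore carry the NOD background, which is prone to autoimmune inflammation of the salivary glands, and the labels do not say how the Myd88 allele was made or in which cells it acts. Myd88 is the adaptor that passes signals from most Toll-like receptors and from interleukin-1 receptors to NF-kB.

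In a secretory cell a small set of factors scales the machinery of export. Xbp1, made active by splicing of its mRNA when the endoplasmic reticulum is loaded, turns on genes of protein folding and transport, and Bhlha15 (also called Mist1) lies downstream of it and shapes the apical granule store. Sox9, Sox10 and the FGF-responsive ETS factors act earlier, in the buds from which acini and ducts form, and ETS factors such as Elf5 and Ehf are expressed in many glandular epithelia.

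None of the 10 factors passed the test between genotypes. Etv1 had the largest difference, −0.58 on the log2 scale, Sox9 had −0.49, and Elf5 had 0.48 with overlapping groups. Bhlha15, Xbp1, Sox10, Ehf and Nfib differed by at most 0.12 on the log2 scale. Limma called 0 of 10 members at an adjusted p under 0.05, against 0% of 22206 probe sets in each direction. At an unadjusted p under 0.05 limma counted 2 members lower, Etv1 and Sox9, and 0 higher, where the shares of all probe sets were 5.55% lower and 4.50% higher. The groups did not overlap in 3 members, all lower in Myd88−/− glands, Etv1, Sox9 and Creb3l1. Over all probe sets 7.25% were lower and 7.84% higher without overlap. The 3 of 10 members lie above that share, and in Creb3l1 and Sox9 the groups were parted by only 0.0011 and 0.0149 log2 units. All members are bright, and bright genes leaned lower. Among the 2223 named genes at least as bright as the dimmest member, 62.0% were lower and the median was −0.08. Without overlap, 12.1% of them were lower and 4.09% higher. Limma counted 192 of these 2223 genes lower and 29 higher at an unadjusted p under 0.05.

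The values are log2 expression values, so that a difference of 1 is a 2-fold difference. The arrays correlated with each other at r = 0.982 to 0.991 across probe sets, and the background control probe sets had a median of 5.55. Every value of every member lay between 10.20 and 17.19, above that background and below the ceiling of the scale at 19.93. Some submandibular secretory genes were bright in each gland. Car6 and Pip, secreted saliva proteins, and the kallikrein Klk1 stood on the ceiling, and Smgc read between 18.78 and 19.83. Others were not: the amylase gene Amy1 read between 6.52 and 6.83, and Dcpp3 and Bpifa2 were low in most glands. The targeted gene had 7.33, 6.80 and 7.47 in Myd88−/− and 7.81, 7.86 and 7.53 in Myd88+/+ glands. Where its probes lie relative to the altered part of Myd88 is unknown here, so it does not check the labels. In whole glands, fewer cells of a type and less RNA per cell cannot be told apart.

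**Figure D1:**
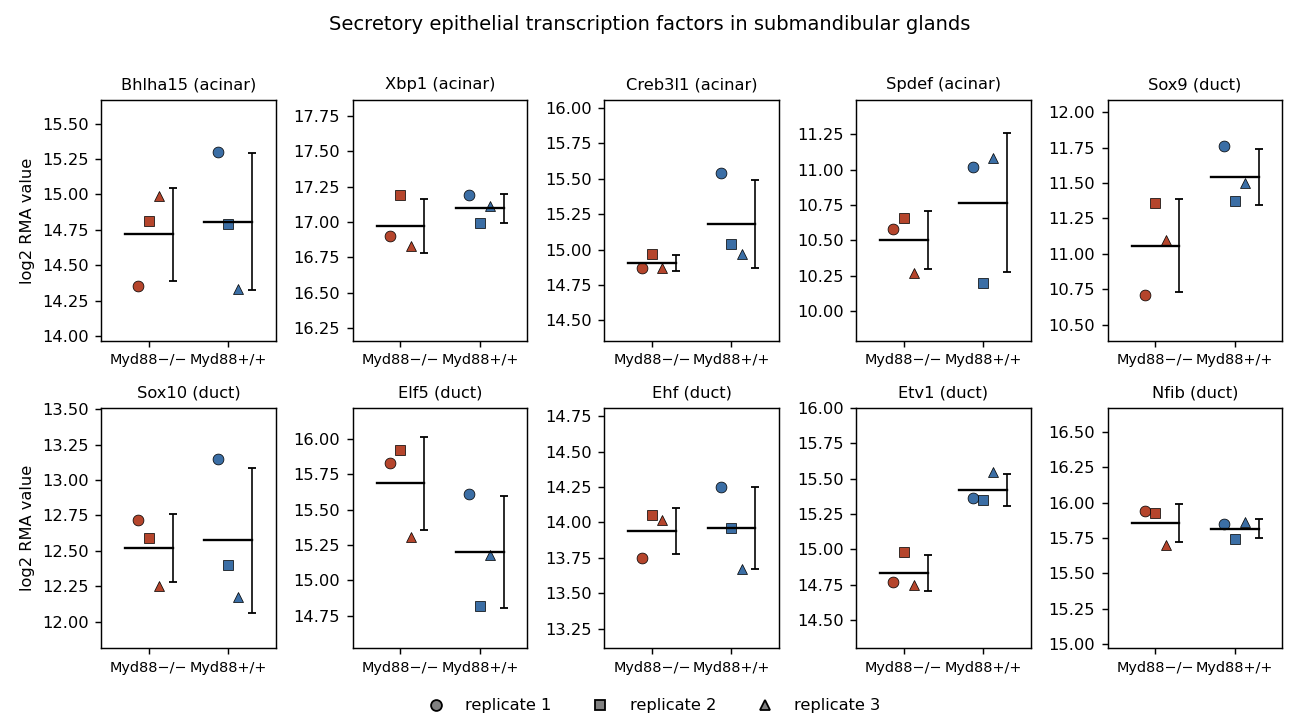
Log2 RMA value of each of the 10 factors (vertical axis, a window of equal height in every panel and not starting at 0) in 3 Myd88−/− glands (red) and 3 Myd88+/+ glands (blue). Marker shapes are replicate numbers, the horizontal bar is the group mean and the error bar is the SD. Etv1 is the factor with a clear gap, between 14.98 at the top of the Myd88−/− glands and 15.35 at the bottom of the Myd88+/+ glands.

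Among the acinar factors, Bhlha15, a basic helix-loop-helix factor that keeps exocrine cells in their secretory state, had 14.35, 14.81 and 14.99 in Myd88−/− glands and 15.30, 14.79 and 14.33 in Myd88+/+ glands. The highest and the lowest of the 6 values both came from Myd88+/+ glands, and the groups overlapped throughout. Bhlha15 averaged 14.71 ± 0.33 in the 3 Myd88−/− glands, against 14.81 ± 0.49 (SD) in the 3 Myd88+/+ glands. The difference of −0.09 had a 95% interval from −0.70 to 0.52 (limma adjusted p = 0.938). The difference was 0.01 after quantile normalization, 0.09 without Myd88−/− replicate 1 and 0.16 without Myd88+/+ replicate 1, so no direction is given for it. The interval holds differences of both signs, and equality of the levels is not shown.

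Xbp1, the bZIP factor of the unfolded protein response, had 16.90, 17.19 and 16.83 in Myd88−/− glands and 17.19, 16.99 and 17.11 in Myd88+/+ glands. Its 6 values spanned 0.36 log2 units and the groups overlapped, with a difference of −0.12 (95% interval −0.51 to 0.27, limma adjusted p = 0.843). The difference was −0.23 without Myd88−/− replicate 2, −0.05 without Myd88−/− replicate 3, −0.07 without Myd88+/+ replicate 1 and −0.05 after quantile normalization. A single probe set reads all Xbp1 mRNA here, so the spliced and unspliced forms, of which only the spliced one encodes the strong activator, were not separated.

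The Bhlha15 promoter is shown because Xbp1 is known to act on Bhlha15, which links these acinar factors. It covers 250 bases before to 50 bases after the RefSeq start, at chr5:144190036-144190335 of GRCm38.p6 on the plus strand. Capitals mark ACGTG, the core of sites bound by Xbp1, searched on both strands.
Bhlha15 promoter: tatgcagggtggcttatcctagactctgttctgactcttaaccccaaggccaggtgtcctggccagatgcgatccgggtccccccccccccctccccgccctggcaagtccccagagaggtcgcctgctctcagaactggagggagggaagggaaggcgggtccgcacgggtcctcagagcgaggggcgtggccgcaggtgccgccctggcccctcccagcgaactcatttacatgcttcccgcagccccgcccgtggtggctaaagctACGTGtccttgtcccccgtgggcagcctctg
The core occurs 1 time in this window, within the 50 bases after the start, and it occurs in 19.6% of all 32817 promoter windows of that length. Promoters of 5 of the 10 members were found in the RefSeq table, with 7 start sites in all, and the core was in 2 of the 7 windows, those of Bhlha15 and Spdef. The match describes the letters and shows no binding.

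Creb3l1, a membrane-bound bZIP factor that is released by cleavage and drives genes of secretion and of collagen export, had 14.87, 14.97 and 14.87 in Myd88−/− glands and 15.54, 15.04 and 14.97 in Myd88+/+ glands. The Myd88−/− glands lay within 0.10 of each other, and Myd88+/+ replicate 1 stood above all other glands. The difference was −0.28 (95% interval −0.72 to 0.16, limma adjusted p = 0.657), and −0.10 without Myd88+/+ replicate 1. Spdef, an ETS factor of mucous and goblet cell maturation, had 10.58, 10.66 and 10.27 in Myd88−/− glands and 11.02, 10.20 and 11.08 in Myd88+/+ glands. Myd88+/+ replicate 2 was the lowest of the 6 and lay below every Myd88−/− gland, while the remaining Myd88+/+ glands lay above all of them. Its difference of −0.26 (limma adjusted p = 0.755) was −0.54 without that mouse and −0.10 without Myd88+/+ replicate 3.

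Of the duct and progenitor factors, Etv1, an ETS factor of the PEA3 group that responds to FGF signalling, had 14.77, 14.98 and 14.75 in Myd88−/− glands and 15.36, 15.35 and 15.55 in Myd88+/+ glands. All Myd88−/− values lay below all Myd88+/+ values, with a gap of 0.36, and each group spanned less than the gap, 0.23 in Myd88−/− and 0.20 in Myd88+/+ glands. Etv1 averaged 14.84 ± 0.13 in the 3 Myd88−/− glands, against 15.42 ± 0.11 (SD) in the 3 Myd88+/+ glands. The difference was −0.58 with a standard error of 0.17 and a 95% interval from −0.96 to −0.21. Its unadjusted limma p was 0.00613 and its adjusted p 0.382, so it did not pass. A two-sided exact permutation of the genotypes gave p = 0.1, which is the lower limit for groups of 3. Leaving out any 1 mouse kept the difference between −0.66 and −0.52.

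The promoter at the upstream start of Etv1 is printed as the window of the factor that differed most. It lies at chr12:38779832-38780131 of GRCm38.p6 on the plus strand, and it would carry capitals at any match to 4 motifs searched on both strands. These were ACGTG, the ETS site CCGGAA, the E-box CATATG that Bhlha15 prefers, and the kappaB consensus, the site of the factor that Myd88 signalling activates.
Etv1 promoter: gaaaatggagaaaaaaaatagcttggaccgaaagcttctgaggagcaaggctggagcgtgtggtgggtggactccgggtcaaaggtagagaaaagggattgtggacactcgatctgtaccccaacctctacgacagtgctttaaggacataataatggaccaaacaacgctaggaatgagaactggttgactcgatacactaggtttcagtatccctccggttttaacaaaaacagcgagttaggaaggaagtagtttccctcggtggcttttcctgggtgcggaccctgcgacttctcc
No capitals appear, so none of the 4 motifs is in this window, and none is in the window of the second Etv1 start. The ETS site, the E-box and the kappaB consensus were in 0 of the 7 member windows, against 14.9%, 3.92% and 4.5% of all windows. Absence of these letters in a short window says nothing about the factors that bind them.

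Sox9, an SRY-related factor needed in the growing tips of the gland, had 10.71, 11.36 and 11.10 in Myd88−/− glands and 11.76, 11.37 and 11.50 in Myd88+/+ glands. Myd88−/− replicate 2 came within 0.0149 of Myd88+/+ replicate 2, so the groups were separate but almost touched. Sox9 averaged 11.05 ± 0.32 in the 3 Myd88−/− glands, against 11.54 ± 0.20 (SD) in the 3 Myd88+/+ glands. The difference was −0.49 (95% interval −0.96 to −0.02, limma adjusted p = 0.484). It was −0.32 without Myd88−/− replicate 1, the lowest gland, and −0.64 without Myd88−/− replicate 2.

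Sox10, the paralog of Sox9 that acinar, intercalated duct and myoepithelial cells share with the glia of nerves, had 12.72, 12.59 and 12.25 in Myd88−/− glands and 13.15, 12.40 and 12.17 in Myd88+/+ glands. The groups overlapped, with Myd88+/+ glands at both ends. The difference of −0.05 (95% interval −0.65 to 0.54, limma adjusted p = 0.965) turned to 0.06 after quantile normalization, 0.04 after cyclic loess and 0.24 without Myd88+/+ replicate 1. Sox9 and Sox10 were not tested against each other. Of 10 measured Schwann cell and nerve markers, 7 were lower and 3 higher, with a median of −0.24, and limma called 0 of them after adjustment. Their mean log2 level per array ran from 5.64 to 5.73 in Myd88−/− and from 5.76 to 5.97 in Myd88+/+ glands. Both group means of 7 of the 10, S100b and Mbp among them, lay under the background control median. Pmp22, Erbb3 and Cdh19 lay above it. Pmp22, a myelin protein also made outside nerve, had −0.65 and the receptor gene Erbb3, which epithelia also express, −0.51, both without overlap (limma adjusted p = 0.368 and 0.431). Cdh19 had 0.17 with overlapping groups. The part of these cells in the Sox10 values was not tested.

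Elf5, an ETS factor known for the secretory cells of the mammary gland, had the largest difference in the other direction. It had 15.83, 15.92 and 15.31 in Myd88−/− glands and 15.61, 14.82 and 15.18 in Myd88+/+ glands. The highest gland was Myd88−/− and the lowest Myd88+/+, but Myd88+/+ replicate 1 lay above Myd88−/− replicate 3. The difference was 0.48 (95% interval −0.07 to 1.04, limma adjusted p = 0.553), between 0.29 and 0.69 without 1 mouse. The two-sided exact permutation p was 0.2.

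Ehf, the related ETS factor, is the next protein-coding gene to Elf5 on chromosome 2, and the pair can be read side by side. Ehf had 13.75, 14.05 and 14.02 in Myd88−/− glands and 14.25, 13.96 and 13.67 in Myd88+/+ glands. Its groups overlapped and its difference was −0.02 (95% interval −0.47 to 0.43, limma adjusted p = 0.981), 0.09 after quantile normalization and 0.05 after cyclic loess. The gene on the far side of Ehf, Apip, had a difference of 0.07 (limma adjusted p = 0.953). The gene on the far side of Elf5, Cat, which encodes catalase, had 14.96, 14.92 and 14.83 in Myd88−/− glands and 15.29, 15.43 and 15.17 in Myd88+/+ glands. Its groups did not overlap, with a difference of −0.39 (limma adjusted p = 0.472).

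Elf5 has 2 start sites in the RefSeq table, and the upstream one is printed beside Etv1 because these ETS factors lay furthest apart in direction. It is at chr2:103411848-103412147 of GRCm38.p6, plus strand, with capitals reserved for the same 4 motifs.
Elf5 promoter: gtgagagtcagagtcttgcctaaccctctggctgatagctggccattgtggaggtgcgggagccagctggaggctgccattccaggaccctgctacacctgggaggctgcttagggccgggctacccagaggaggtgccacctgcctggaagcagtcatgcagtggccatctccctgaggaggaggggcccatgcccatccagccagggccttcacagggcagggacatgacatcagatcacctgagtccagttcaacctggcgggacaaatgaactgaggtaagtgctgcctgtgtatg
This window holds none of the 4 motifs either.

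Nfib, a nuclear factor I protein of epithelial and mesenchymal development, was the steadiest member. It had 15.94, 15.93 and 15.70 in Myd88−/− glands and 15.85, 15.74 and 15.86 in Myd88+/+ glands, a span of 0.24. The difference was 0.04 (95% interval −0.33 to 0.41, limma adjusted p = 0.955).

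**Figure D2:**
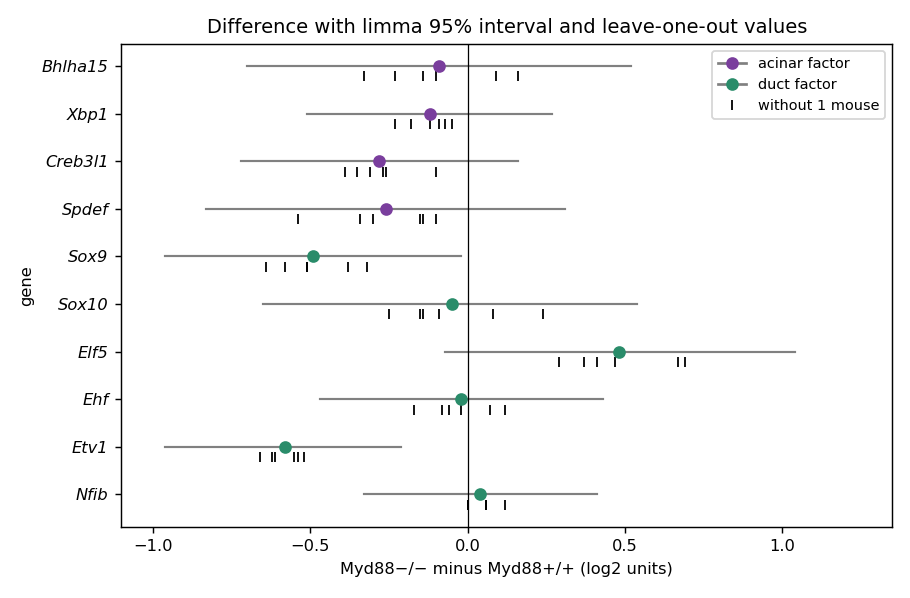
Log2 difference of each factor, Myd88−/− minus Myd88+/+ (horizontal axis, log2 units), with acinar factors in purple and duct factors in green. Grey lines are limma's 95% intervals and black ticks the difference with 1 mouse left out. The intervals of Etv1 and Sox9 lie below 0, the remaining 8 include 0, and ticks of Bhlha15, Sox10 and Ehf fall on both sides of it.

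The factors differed in their spread between mice of a genotype. The SD within groups was 0.11 for Nfib, 0.12 for Etv1 and 0.15 for Xbp1, and it was 0.41 for Bhlha15, 0.40 for Sox10 and 0.38 for Spdef, beside a median of 0.25 over all named genes. Myd88+/+ replicate 1 had the highest value of the 6 arrays in 6 of the 10 factors and the lowest in 0. Myd88−/− replicate 2 was the highest of its group in 7 factors, and Myd88−/− replicate 3 was the lowest of its group in 7. With each factor centred on its own mean, the 10 averaged −0.13, 0.08 and −0.16 in Myd88−/− glands and 0.34, −0.10 and −0.03 in Myd88+/+ glands. Without Myd88+/+ replicate 1, 5 members were lower in place of 8, and the median difference of the 10 was −0.01 in place of −0.11. That median was −0.02 after quantile normalization and −0.06 after cyclic loess.

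Myd88+/+ replicate 1 and Myd88−/− replicate 3 also stood at the ends of the arrays in signal range. The distance between the 10 and 90 percentiles of an array was 6.95, 7.13 and 6.83 in Myd88−/− arrays. In Myd88+/+ arrays it was 7.30, 7.10 and 7.20. The widest was Myd88+/+ replicate 1 and the narrowest Myd88−/− replicate 3. Myd88−/− arrays were mostly narrower, but Myd88−/− replicate 2 was wider than Myd88+/+ replicate 2. With genes split by brightness, the median difference was −0.07 in the brighter part and 0.09 in the dimmer part. All 10 factors are bright. Adipocyte markers, centred in the same way, averaged −0.02 in each Myd88−/− gland and 0.69, −0.31 and −0.33 in Myd88+/+ glands, with both group means of 6 of the 7 under the background median. The part of signal range or of adipose tissue in the values of the factors was not tested.

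**Figure D3:**
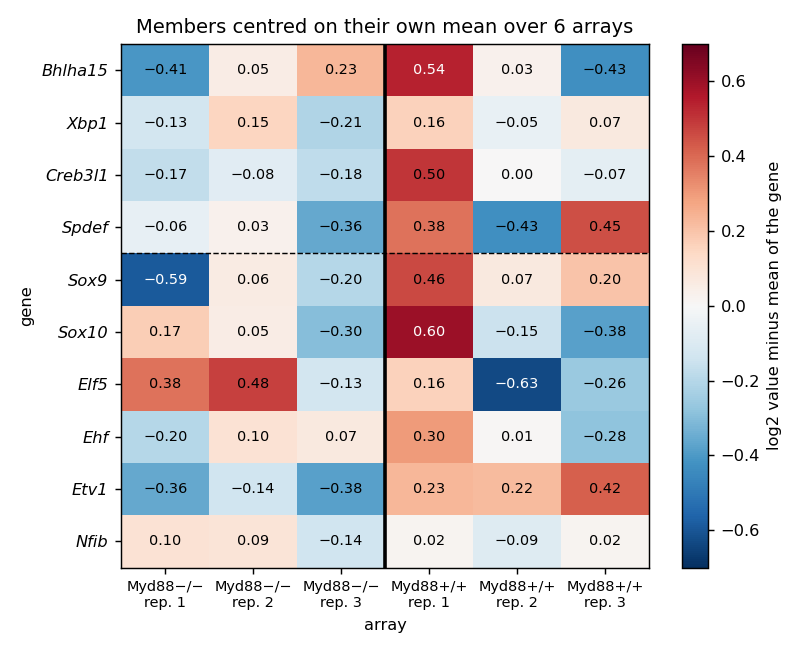
Each factor's log2 value minus its own mean over the 6 arrays, in Myd88−/− glands (left of the line) and Myd88+/+ glands (right of it), as colour and number. Acinar factors are above the dashed line and duct factors below it. Red cells gather in Myd88+/+ replicate 1, and only the Etv1 row changes sign between the genotypes without exception.

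Of the 45 pairs of factors, Xbp1 and Nfib followed each other most closely over the 6 arrays, with a root mean square distance of 0.12 between centred log2 values, both being nearly flat. Bhlha15 and Ehf followed at 0.16, an acinar and a duct factor each lowest in its group in Myd88−/− replicate 1 and in Myd88+/+ replicate 3. Sox9 and Etv1 were 0.20 apart. The most distant pairs were Etv1 with Elf5, at 0.60, and Sox9 with Elf5, at 0.57. These distances describe 6 arrays and carry no test.

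Sox9 and Elf5 were the factors whose 6 values spanned at least 1 log2 unit, and 17010 named genes were ranked by their distance from each. Nearest to Sox9 were Bcl2l11, a promoter of cell death, Tsr2, Cttnbp2nl and Cnppd1, all at 0.07, and both group means of Bcl2l11 lay under the background control median. Nearest to Elf5 were Elavl4, an RNA-binding protein of neurons, at 0.08, the kinase gene Sik2 at 0.10, Ttpal at 0.11 and Tmem165, a Golgi membrane protein, at 0.12. Both group means of Elavl4 lay under the background median, as did the Myd88+/+ mean of Ttpal. With so many genes and so few arrays such neighbours are a description only.

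Close relatives in the same families gave no call either. Of 12 relatives measured, 8 were lower and 4 higher with a median difference of −0.16, and limma called 0 of 12 after adjustment and counted 3 lower and 1 higher at an unadjusted p under 0.05. Over all 19505 named genes 9437 were lower and the median was 0.01. Of all probe sets limma counted 5.55% lower and 4.50% higher at that unadjusted limit. In the CREB3 family, Creb3l2, which serves collagen-secreting cells, had 10.87, 10.90 and 11.14 in Myd88−/− and 11.96, 11.51 and 11.10 in Myd88+/+ glands, a difference of −0.56 (limma adjusted p = 0.477) with overlapping groups. Creb3l3, known from liver, had 6.78, 7.15 and 7.19 in Myd88−/− and 6.56, 6.59 and 6.49 in Myd88+/+ glands, a difference of 0.50 without overlap (limma adjusted p = 0.434). Creb3 had 0.26, with a gap of 0.0092 between the groups, and Creb3l4 had 0.14. The stress factor Atf6, a partner of Xbp1, had −0.23.

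In the ETS family, Elf3, the epithelial relative of Elf5 and Ehf, had 6.54, 6.48 and 5.85 in Myd88−/− and 6.89, 6.96 and 6.71 in Myd88+/+ glands. Its groups did not overlap and its difference was −0.56 (limma adjusted p = 0.454), the opposite sign to Elf5. The PEA3 relatives of Etv1 had −0.19 for Etv4, with both group means under the background median, and −0.26 for Etv5, with overlapping groups. In the SOXE group Sox8 had 0.04, both means being under the background median. Among the nuclear factor I genes Nfic had 6.75, 7.94 and 7.37 in Myd88−/− and 8.34, 8.48 and 7.75 in Myd88+/+ glands, a difference of −0.83 (limma adjusted p = 0.443) with overlap, while Nfia had −0.04 and Nfix −0.14.

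**Figure D4:**
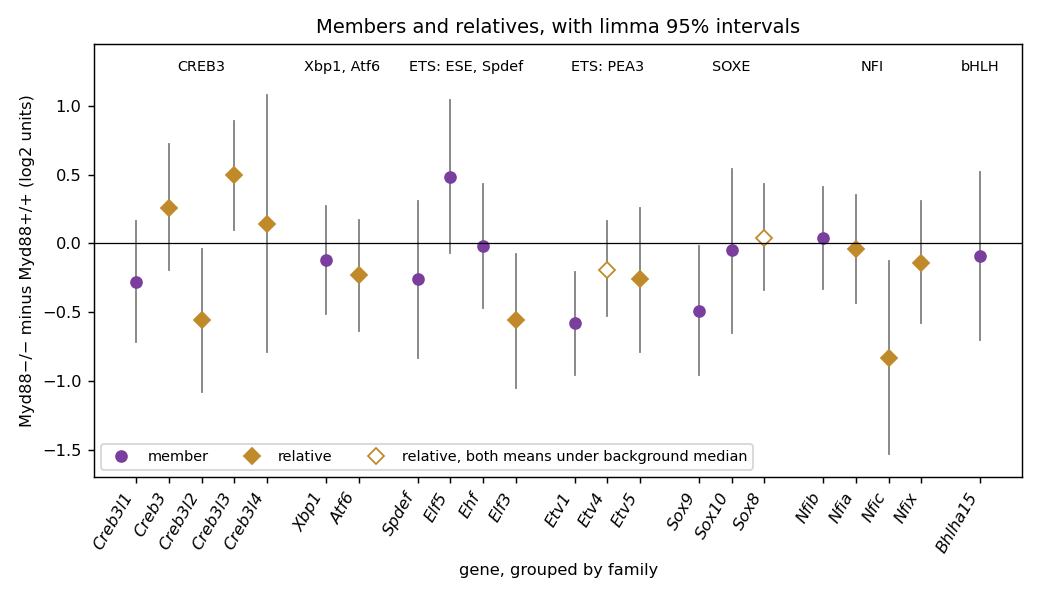
Log2 difference, Myd88−/− minus Myd88+/+ (vertical axis, log2 units), of the 10 factors (circles) and their 12 relatives (diamonds), grouped by family along the horizontal axis. Lines are limma's 95% intervals and open diamonds have both group means under the background control median. Members of one family take both signs, as Elf5 at 0.48 and Elf3 at −0.56 show.

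Genes that the factors are known to serve were read beside them. Of 16 measured genes of endoplasmic reticulum function that Xbp1 induces, 8 were lower and 8 higher, with a median of −0.02. Limma called 0 of 16 (1 lower and 1 higher at an unadjusted p under 0.05). Of all probe sets 5.55% were lower and 4.50% higher at that limit. In the list 2 genes were lower and 1 higher without overlap, against 7.45% and 7.42% of all named genes. Hyou1, a chaperone, had 14.93, 15.17 and 14.74 in Myd88−/− and 14.60, 14.35 and 14.45 in Myd88+/+ glands, a difference of 0.47 without overlap (limma adjusted p = 0.450). Sec24d, a coat protein of export vesicles, had −0.54 (limma adjusted p = 0.456), and its groups were parted by 0.0232. Spcs3, a subunit of the signal peptidase, had 0.42 and Ssr3, of the translocon, 0.34, both with overlapping groups. These genes took both directions.

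Genes that depend on Bhlha15 or Spdef in other secretory cells numbered 8, of which 2 were lower and 6 higher, with a median of 0.09. Limma called 0 of 8, with 0 at an unadjusted p under 0.05, and 0 of 8 had separate groups. At that unadjusted limit 5.55% of all probe sets were lower and 4.50% higher. Without overlap 7.45% of all named genes were lower and 7.42% higher, so counts of 0 in so short a list say little. Rab26, a small GTPase of secretory granules, had 0.32 (limma adjusted p = 0.595) and Ccpg1, of endoplasmic reticulum turnover, 0.15. Both group means of 4 of the 8, Atp2c2, Foxa3, Agr2 and Tff3, lay under the background median. Foxa3, Agr2 and Tff3 are known with Spdef from mucous cells, and Agr2 and Tff3 were named after their values were seen.

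A list of FGF and Kit signalling, which act in gland formation, had 10 of 12 genes lower and a median of −0.27. Over all named genes 48.4% were lower, and the count in the list was 7 without Myd88−/− replicate 3. Among the 10 lower genes were Kit and its ligand Kitl, which are not FGF genes, at −0.25 and −0.01. The ligand Fgf10 had −0.04 and the receptor Fgfr2 0.14, both with overlapping groups. Fgfr1, at −0.03, and Spry4, at 0.03, had both group means under the background median. Limma called 0 of 12 and counted 1 lower at an unadjusted p under 0.05, Dusp6, where 5.55% of all probe sets were lower. This was also the only gene of the list with separate groups, and 7.45% of all named genes were lower without overlap. Dusp6, a phosphatase that FGF signalling induces and that restrains it, had 11.15, 11.31 and 11.00 in Myd88−/− and 11.80, 11.40 and 11.88 in Myd88+/+ glands. The groups did not overlap, by 0.0878, with a difference of −0.54 (limma adjusted p = 0.431). The feedback inhibitors Spry1, Spred2 and Spred1 had −0.49, −0.42 and −0.33, all with overlapping groups and limma adjusted p between 0.522 and 0.654. Etv1 and Dusp6 were both lower without overlap, and neither passed the test.

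Of the 22 other transcription factors of glandular epithelium, 20 were measured and 15 were lower, with a median of −0.26. Limma called 0 of 20 and counted 6 lower and 0 higher at an unadjusted p under 0.05, and 5 had separate groups, all lower. Trp63, of basal cells, had 9.14, 9.50 and 9.49 in Myd88−/− and 10.54, 10.66 and 10.49 in Myd88+/+ glands, a difference of −1.18 (limma adjusted p = 0.309). Ascl3 and Foxi1, factors of duct ionocytes and progenitors, had −0.96 and −0.60, and Klf5, a factor of epithelial growth, −0.61, at limma adjusted p between 0.360 and 0.388. Both group means of 4 of the 20 lay under the background control median. Over all named genes 48.4% were lower, the median was 0.01, and 7.45% were lower and 7.42% higher without overlap. At an unadjusted p under 0.05 limma counted 5.55% of all probe sets lower.

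Markers of the cells that hold these factors, and of cells that could add to them, were counted in the same way. Of 13 measured acinar markers 8 were lower and 3 higher, with 2 on the ceiling and a median of −0.11. The water channel Aqp5 had 13.80, 13.95 and 13.76 in Myd88−/− and 14.32, 13.74 and 13.88 in Myd88+/+ glands, and its difference of −0.14 did not pass (limma adjusted p = 0.837). Of 15 duct markers 6 were lower and 8 higher, with 1 on the ceiling and a median of 0.00. The 8 higher include Krt18 and Klk1b22, whose differences were 0.00, and Klk1b22 read between 19.92 and 19.93, at the ceiling. The sodium channel subunit Scnn1g had −0.62 (limma adjusted p = 0.481) and the chloride channel Cftr 0.49 (limma adjusted p = 0.647), both with overlapping groups. Of 12 myoepithelial and basal markers 10 were lower, with a median of −0.40, and Acta2, smooth muscle actin, had −0.81 with overlapping groups (limma adjusted p = 0.440).

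Fibroblast and matrix markers, from cells that can also express Creb3l1, Nfib and Sox9, were lower in 11 of 11, with a median of −0.52. Their mean log2 level per array ran from 9.18 to 9.86 in Myd88−/− glands and from 9.99 to 10.67 in Myd88+/+ glands, without overlap. Col1a2, a collagen chain, had −1.12 and the matrix genes Fbln1 and Dpt had −0.90 and −1.30, at limma adjusted p between 0.321 and 0.412. Leukocyte markers were lower in 11 of 12, at a mean level from 7.01 to 7.22 in Myd88−/− and from 7.41 to 8.46 in Myd88+/+ glands. The share lower over all named genes was 48.4%. Myd88+/+ replicate 3 stood highest in both lists. Centred values of the leukocyte markers averaged −0.29, −0.50 and −0.37 in Myd88−/− and −0.09, 0.30 and 0.95 in Myd88+/+ glands. Those of the fibroblast markers averaged −0.36, −0.03 and −0.71, and 0.10, 0.22 and 0.78. These lists differed in the same direction as Etv1, Sox9 and Creb3l1, and their part in those differences was not tested. Plasma cells, another source of Xbp1, had 7 of 12 markers lower at a mean level from 7.12 to 7.33 in Myd88−/− and from 7.25 to 7.65 in Myd88+/+ glands. Both group means of 6 of the 12 lay under the background median, Prdm1, Irf4, Tnfrsf17 and Mzb1 among them. The other 6 lay above it, among them Sdc1, a surface marker of plasma cells that epithelia also express, with 8.26, 8.67 and 8.53 in Myd88−/− and 8.49, 8.50 and 8.06 in Myd88+/+ glands. The difference of Sdc1 was 0.14 (limma adjusted p = 0.840), and Jchain had −2.18 with overlapping groups (limma adjusted p = 0.481). The mean level of the list rests largely on Txndc5, Derl3 and Fkbp11. Their means were 14.67, 13.52 and 11.45 in Myd88−/− and 14.79, 13.50 and 11.27 in Myd88+/+ glands. The list level therefore need not follow the number of plasma cells. The part of plasma cells in the Xbp1 values was not tested.

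**Figure D5:**
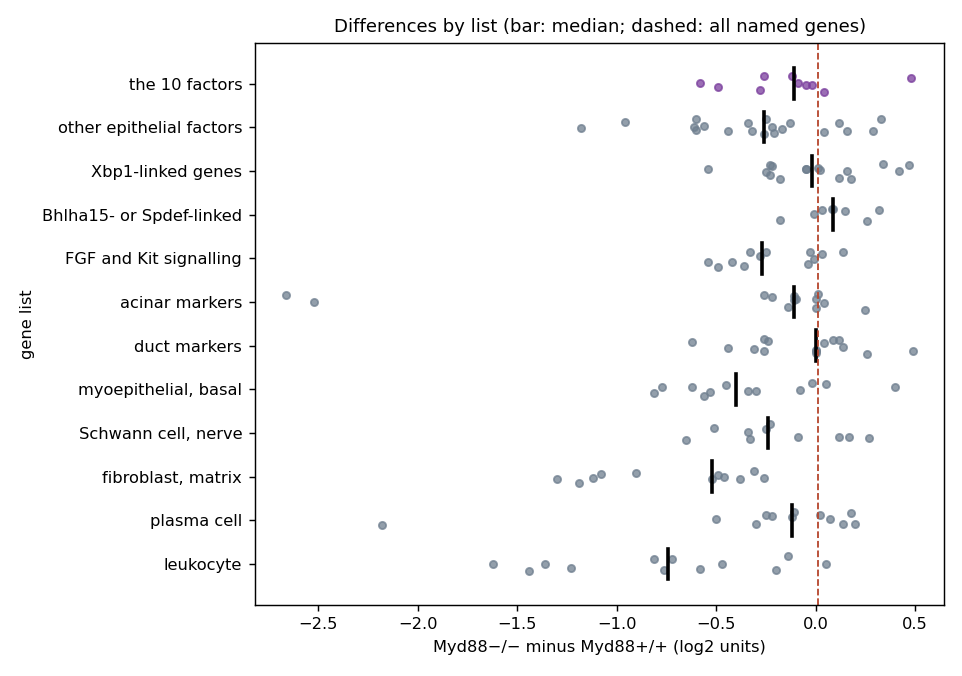
Log2 difference of single genes, Myd88−/− minus Myd88+/+ (horizontal axis, log2 units), in the 10 factors (purple) and 11 lists (grey). Black bars are list medians and the dashed line is the median of all named genes, 0.01. The 10 factors lie between −0.58 and 0.48, and leukocyte and fibroblast markers lie furthest to the left by median, at −0.74 and −0.52.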

How the data were processed

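The authors deposited log2 values made by RMA (background correction, normalization between arrays and summary per probe set). They used the Transcriptome Analysis Console, as the submitters' processing notes name it, with version and genome build not stated in these sources. Differences near background or near the ceiling are compressed.

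Of 28846 rows, 6640 control probe sets were left out. Of 22206 tested probe sets 19572 had 1 gene symbol. The other 2634 had no single symbol, as entries with several symbols were also left unnamed here. The probe set with the highest mean stood for a gene, which left 19505 genes.

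Myd88−/− was compared with Myd88+/+ by limma 3.58.1 under R 4.3.3, using lmFit and eBayes without trend or covariates. Benjamini-Hochberg adjusted p-values cover the 22206 probe sets, and 0.05 was the limit for a call. The fit was tested on simulated data. The number of arrays, 3 per group, limits the precision. Intervals are limma's 95% intervals for a single gene. Lists are described by counts and medians, with no test.

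Named genes are the members, their relatives, the neighbours of Elf5 and Ehf, Myd88, the genes of lowest unadjusted p in a list (at most 4, or 3 for cell type lists), and the 4 genes nearest to a member that spans at least 1 log2 unit. Further markers and list genes, Dcpp3 included, were named after their values were seen. Members and lists were chosen with earlier results of these data known. Promoters are from RefSeq, build GRCm38.p6, and a window holds 250 bases before and 50 bases after a start.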

Additional observations from a re-analysis of the deposited data

How the results depend on the processing

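No member was called under any of the 14 alternatives run (other scalings, filters on dim probe sets, variance models, the replicate block and leaving out each mouse). Over 140 member values, 127 kept their direction and side of the threshold and 13 changed sign. Etv1 lay between −0.66 and −0.50, Sox9 between −0.64 and −0.32, and Elf5 between 0.29 and 0.69, at limma adjusted p of 0.206 to 0.682, 0.270 to 0.742 and 0.383 to 0.761. Sign changes came after quantile normalization in Bhlha15 (0.01), Sox10 (0.06) and Ehf (0.09), after cyclic loess in Sox10 (0.04) and Ehf (0.05), and with array weights in Sox10 (0.04). Leaving out 1 mouse gave −0.33 to 0.16 for Bhlha15, −0.25 to 0.24 for Sox10, −0.17 to 0.12 for Ehf and 0.00 to 0.12 for Nfib. The cause of these sign changes was not tested. The count of members lower was 5 after quantile normalization and 5 to 8 without 1 mouse, against 8. Over all probe sets the count called, 0, became 2 with median centring, 4 with an intensity trend and robust variances, and 0 to 5 without 1 mouse. Scaling moved the median of all named genes to between −0.01 and 0.01. Of the 68 genes in the lists of relatives, other factors and linked genes, 43 were lower, against 36 to 46 under the alternatives, and filters on dim probe sets also removed genes.

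The labels do not say whether same-numbered mice belong together. Deviations of same-numbered arrays from their group means correlated at −0.11, −0.15 and −0.02. This shows no shared shift across the arrays but cannot settle how the mice were bred or handled. With the replicate block, Etv1 kept its difference of −0.58 at a limma adjusted p of 0.546, and 0 probe sets were called, with 1816 in place of 2232 at an unadjusted p under 0.05. An average over several probe sets of a member was not run, as each has 1. Groups of 3 are too small for the search for outlying samples.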

Other observations

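Single glands held secretory genes at levels far from the rest of their group. Dcpp3, a secreted protein of demilune cells, read 6.59, 4.80 and 5.31 in Myd88−/− glands and 4.65, 4.70 and 14.91 in Myd88+/+ glands, so that Myd88+/+ replicate 3 alone was far above background. Bpifa2, a saliva protein of parotid and developing glands, read 5.55, 5.78 and 6.38 in Myd88−/− glands and 9.35, 10.07 and 6.27 in Myd88+/+ glands, high in the other Myd88+/+ mice. Without Myd88+/+ replicate 3 the difference of Etv1 was −0.52 and that of Sox9 −0.51.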
